A study of Mus musculus with 2 samples.

Results

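AMP-activated protein kinase is a heterotrimer encoded by 7 mouse genes, and these genes together with Stk11, which encodes its main upstream kinase LKB1, were followed in skeletal muscle. The 8 genes were chosen by name as the catalytic alpha subunits (Prkaa1, Prkaa2), the scaffold beta subunits (Prkab1, Prkab2), the regulatory gamma subunits (Prkag1, Prkag2, Prkag3) and Stk11. All 8 were found, among 55536 annotated genes of which 22028 were protein-coding. RNA was measured by total RNA-seq in 2 libraries of gastrocnemius, a calf muscle, from male B6CASTF1/J mice aged 10 days. B6CASTF1/J is a hybrid strain, and the values sum the alleles of both parents. The libraries, replicate 2 and replicate 1, form 1 group with no treatment and no control, so no condition could be compared and no test between groups was possible. The labels number the animals differently but give them the same donor code. Each library began from 300 ng of RNA of whole tissue, in which several cell types are mixed.

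AMP-activated protein kinase is switched on when ATP falls and AMP or ADP rises. The gamma subunit binds the nucleotides, LKB1 phosphorylates a threonine in the activation loop of the alpha subunit, and the beta subunit holds the complex together and carries a glycogen-binding module. In skeletal muscle the kinase is known for driving glucose uptake and fatty acid oxidation during contraction, and the gamma3 subunit is known for its restriction to fast-twitch fibres.

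Depth was 38160786 expected counts for replicate 2, against 38874862 for replicate 1. The tissue label was checked against marker genes. The 6 markers of skeletal muscle fibres summed to 76517 TPM in replicate 2, against 74672 in replicate 1 (TPM is a level scaled to transcript length and to the library). The 3 neuronal markers summed to 0.08 TPM in replicate 2, against 1.27 in replicate 1, and macrophage and satellite cell markers each summed to under 20 TPM in both libraries. Erythroid markers stood at 2082 TPM in replicate 2, against 1138 in replicate 1, and fibroblast markers at 2206 TPM in replicate 2, against 2441 in replicate 1. In such bulk tissue fewer cells of a type and less RNA per cell cannot be told apart.

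The alpha genes encode kinase domains that share the activation segment. The coding bases of this segment are printed here because they hold the codon on which LKB1 acts and show where the paralogues differ in bases. The capitals mark the codon of the phosphorylated threonine. Both are taken from the GENCODE M21 transcripts and each runs across an exon junction. The Prkaa1 segment spans chr15:5168706-5170002 on the plus strand of mm10, and the Prkaa2 segment spans chr4:105049348-105051208 on the minus strand.
Prkaa1-201: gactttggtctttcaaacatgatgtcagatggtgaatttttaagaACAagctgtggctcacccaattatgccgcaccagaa
Prkaa2-201: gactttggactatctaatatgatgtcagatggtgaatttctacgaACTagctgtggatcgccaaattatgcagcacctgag
The segments differed at 13 of 81 bases (84.0% identical), including the last base of the threonine codon. Read in frame, both encode the same amino acids, so none of the 13 differences changes the encoded segment. Over the whole coding sequence, Prkaa1 and Prkaa2 were 70.5% identical over 1628 aligned positions. They shared 5 stretches of 31 bases, so few stretches of that length could be confused between the paralogues. The beta genes were 72.8% identical in coding sequence, and the gamma genes between 64.7% and 69.3%, with no shared stretch of 31 bases in either family.

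Transcripts of all 8 genes reached 1 TPM or more in both libraries, against 51.4% of protein-coding genes. The members differed widely in level. Stk11 was the highest, at 48.9 TPM in replicate 2, against 44.5 in replicate 1 (46.7 ± 3.09 TPM, SD, n = 2). Prkag2 was the lowest, at 5.12 TPM in replicate 2, against 5.24 in replicate 1 (5.18 ± 0.0849 TPM, SD, n = 2). The order of the 8 genes by TPM was the same in both libraries, namely Stk11, Prkaa2, Prkab2, Prkag3, Prkag1, Prkab1, Prkaa1 and Prkag2. Of the 7 pairs of neighbours in this order, 1 overlapped between the libraries, Prkab2 and Prkag3. The lowest gene depended on the estimate. With posterior mean TPM, Prkaa1 had 5.63 TPM in replicate 2 and 5.44 in replicate 1, below Prkag2 with 5.85 in replicate 2 and 5.92 in replicate 1. In the second deposited transcript table, made by a different quantification of the same libraries, Prkaa1 was also the lowest.

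**Figure D1:**
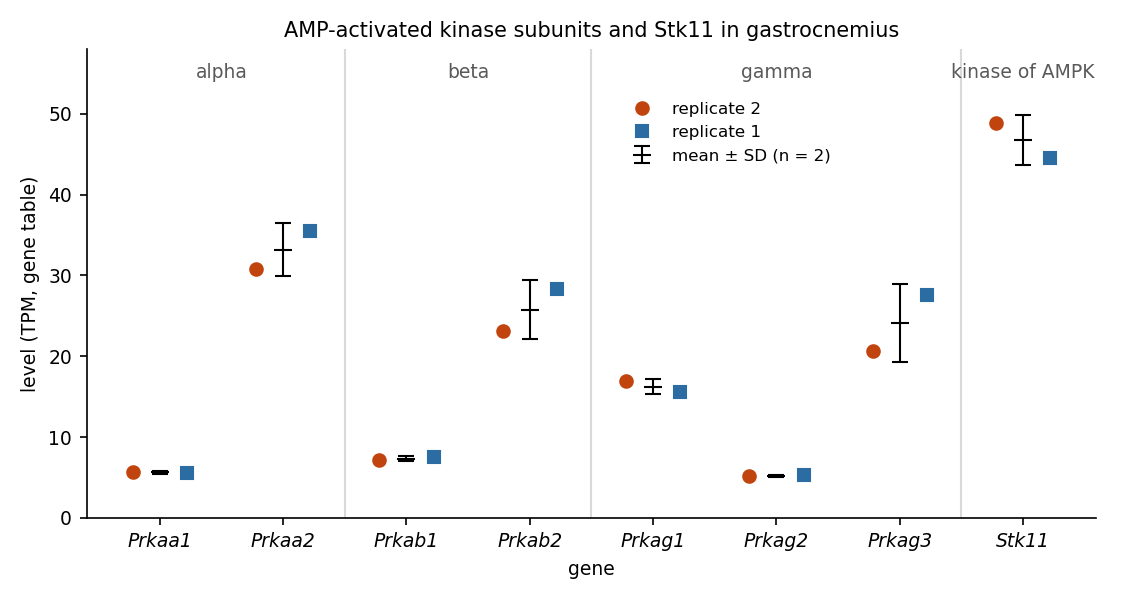
Level in TPM (y axis) of the 8 genes (x axis) in replicate 2 (circles) and replicate 1 (squares), with the mean and SD of the 2 libraries between them. Prkaa2, Prkab2 and Prkag3 each exceed the other genes of their family in both libraries, and Stk11 lies above all 7 subunit genes.

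Among the catalytic subunits, Prkaa2 was the main species. Prkaa2 (chr4:105029874-105109890, minus strand) encodes alpha2, the form that prevails in muscle and heart, and had 30.9 TPM in replicate 2, against 35.6 in replicate 1 (33.2 ± 3.32 TPM, SD, n = 2). It exceeded 92.4% of protein-coding genes by mean TPM and ranked 1680th. Prkaa1 (chr15:5143861-5181899, plus strand) encodes alpha1, the more widely expressed form, and had 5.73 TPM in replicate 2, against 5.52 in replicate 1 (5.63 ± 0.148 TPM, SD, n = 2). The Prkaa1 and Prkaa2 ranges did not overlap, and Prkaa2 made up 84.3% of the alpha TPM in replicate 2 and 86.6% in replicate 1 (85.5% ± 1.57, SD, n = 2). In the second transcript table the Prkaa2 share was 84.1% in replicate 2 and 86.6% in replicate 1. Prkaa2 rested on 7884 expected counts in replicate 2 and 9077 in replicate 1, and Prkaa1 on 845 in replicate 2 and 816 in replicate 1.

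The beta family was likewise led by its second member. Prkab2 (chr3:97658193-97673812, plus strand) encodes beta2, the beta form known to prevail in skeletal muscle, and had 23.2 TPM in replicate 2, against 28.3 in replicate 1 (25.8 ± 3.66 TPM, SD, n = 2). Prkab1 (chr5:116013586-116024508, minus strand) encodes beta1, the main form of mouse liver, and had 7.10 TPM in replicate 2, against 7.54 in replicate 1 (7.32 ± 0.311 TPM, SD, n = 2). The levels of the pair did not overlap. Prkab2 made up 76.5% of the beta TPM in replicate 2 and 79.0% in replicate 1 (77.8% ± 1.73, SD, n = 2), and 77.5% in replicate 2 and 77.7% in replicate 1 of the second table. Expected counts of Prkab2 were 3692 in replicate 2 and 4506 in replicate 1, and those of Prkab1 were 399 in replicate 2 and 446 in replicate 1.

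In the gamma family no gene dominated to the same extent. Prkag3 (chr1:74738922-74749221, minus strand) encodes the muscle-restricted gamma3 and had 20.7 TPM in replicate 2, against 27.6 in replicate 1 (24.1 ± 4.87 TPM, SD, n = 2). Prkag1 (chr15:98812797-98831521, minus strand) encodes the widely expressed gamma1 and had 16.9 TPM in replicate 2, against 15.6 in replicate 1 (16.3 ± 0.976 TPM, SD, n = 2). Prkag2 (chr5:24862744-25100642, minus strand) encodes gamma2, in which human mutations cause a cardiomyopathy with glycogen storage. Prkag3 was the highest of these genes in both libraries of the gene table, and its range did not overlap that of Prkag1. With transcripts annotated as protein-coding only, Prkag1 led instead, with 54.6% of the gamma TPM in replicate 2 and 47.0% in replicate 1, against 34.3% in replicate 2 and 41.4% in replicate 1 for Prkag3. In the gene table the Prkag3 share of the gamma TPM was 48.4% in replicate 2 and 57.0% in replicate 1 (52.7% ± 6.09, SD, n = 2). The share of Prkag1 was 39.7% in replicate 2 and 32.2% in replicate 1 (35.9% ± 5.28, SD, n = 2), and that of Prkag2 was 12.0% in replicate 2 and 10.8% in replicate 1. Depth was lowest for Prkag2, with 324 expected counts in replicate 2 and 336 in replicate 1. Prkag3 had 1799 expected counts in replicate 2 and 2332 in replicate 1, and Prkag1 had 794 in replicate 2 and 740 in replicate 1.

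**Figure D2:**
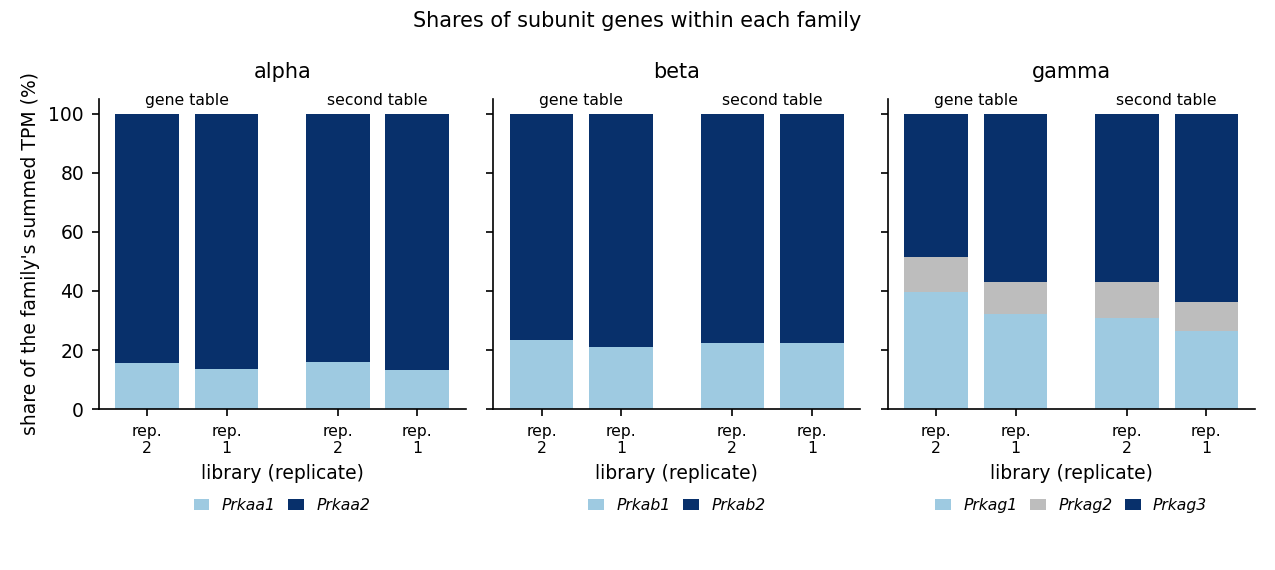
Share of each gene in the summed TPM of its family (y axis, %) for the alpha, beta and gamma families, in replicate 2 and replicate 1 of the gene table and of the second transcript table (x axis). Prkaa2 takes between 84.1% and 86.6% in all 4 bars, whereas the Prkag3 share runs between 48.4% and 63.8%.

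The summed levels of the 3 families lay close together in the gene table. The alpha genes summed to 36.6 TPM in replicate 2, against 41.1 in replicate 1, the beta genes to 30.3 TPM in replicate 2, against 35.9 in replicate 1, and the gamma genes to 42.7 TPM in replicate 2, against 48.4 in replicate 1. On the log2 scale, with a pseudocount of 0.1 TPM, alpha exceeded beta by 0.27 in replicate 2 and 0.19 in replicate 1 (0.23 ± 0.055, SD, n = 2). Alpha over gamma was -0.22 in replicate 2 and -0.23 in replicate 1 (-0.23 ± 0.0082, SD, n = 2). The order of alpha and gamma depended on which transcripts were counted. With transcripts annotated as protein-coding only, alpha over gamma was 0.31, and in the second table it was -0.88. Both shifts involved Prkag3, whose transcripts are described below.

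Stk11 (chr10:80115803-80130682, plus strand) encodes LKB1, which acts in a complex with a STRAD pseudokinase and an MO25 scaffold. Its level exceeded the highest subunit gene, Prkaa2, in both libraries, and 94.6% of protein-coding genes lay below its mean TPM. It rested on 2766 expected counts in replicate 2 and 2482 in replicate 1. In the second table Stk11 had 70.3 TPM in replicate 2, against 65.0 in replicate 1, and its range there overlapped that of Prkag3, at 49.4 TPM in replicate 2, against 69.0 in replicate 1. Levels as deposited in the second table were higher for all 8 genes. In that table nuclear protein-coding genes took 72.7% of the TPM in replicate 2 and 73.1% in replicate 1, against 44.2% in replicate 2 and 43.7% in replicate 1 of the gene table. The second table was also scaled to the same nuclear protein-coding sum, an alternative chosen after seeing the data. It then put the mean TPM of 5 of 8 below the gene table and that of the 3 gamma genes above it. The means of Prkab2 and Prkag1 stayed within their SD in the gene table. Prkag1 in replicate 2 was lower than there, at 16.3 TPM against 16.9. Stk11 then averaged 40.8 TPM and Prkaa2 27.1 TPM, while Prkag3 averaged 35.6 TPM and so lay above Prkaa2. Both this order and the overlap with Stk11 rested on Prkag3-203, a short model described below. It took 42.8% of the Prkag3 TPM of the second table in replicate 2 and 44.8% in replicate 1. Without Prkag3-203, Prkag3 lay below Prkaa2 and Stk11 in both libraries of that table.

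The libraries lay within 1.5-fold of each other for every member. Ratios are log2 of replicate 2 over replicate 1 after TMM scaling, which sets the bulk of genes equal, with an exact binomial interval of 95% that covers counting error only. No member passed a difference of 1.5-fold in either direction (0 of 8), against 4.32% of the 13137 protein-coding genes that averaged 20 or more expected counts. The median ratio of the members was -0.04, beside 0.01 over those genes. The members that led their families were all lower in replicate 2. The ratio of Prkag3 was -0.30 (interval -0.39 to -0.22), and 16.9% of the tested genes had a larger absolute ratio. That of Prkab2 was -0.22 (interval -0.28 to -0.15) and that of Prkaa2 was -0.13 (interval -0.18 to -0.09). The other 2 members beyond their counting interval were higher in replicate 2. Stk11 had a ratio of 0.23 (interval 0.15 to 0.30) and Prkag1 one of 0.17 (interval 0.03 to 0.32). The ratio was 0.12 for Prkaa1 (interval -0.02 to 0.26), -0.09 for Prkab1 (interval -0.29 to 0.11) and 0.02 for Prkag2 (interval -0.21 to 0.24), so these 3 did not differ beyond counting error at this depth. The sign of Prkag2 turned under scaling to library totals or to spike-in totals, and its TPM was slightly lower in replicate 2.

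Intervals that excluded 0 were found for 3 of 8 members in the lower direction, beside 13.2% of the tested genes, and for 2 of 8 in the higher direction, beside 19.1%. Such counts depend on depth. Every member had 324 or more expected counts in each library, whereas the tested genes needed an average of only 20. The shares of tested genes, here and for the 1.5-fold limit, were not matched for depth. These intervals hold no spread between animals, and with 1 group no test can be made of it. The counts of all 8 members summed to 18503 in replicate 2 and 20735 in replicate 1, a log2 ratio of -0.09 (interval -0.12 to -0.07). Markers of fibre type and of other cells moved between the same libraries. The 5 slow fibre markers (Myh7, Tnnt1, Myl2, Tnnc1, Tnni1) summed to 960 TPM in replicate 2, against 666 in replicate 1, and each of the 5 was the higher in replicate 2 (median log2 ratio 0.62). Of the 6 general fibre markers, 5 were higher in replicate 2. The exception was Myh4, the myosin of the fastest fibres, with 7723 TPM in replicate 2, against 8972 in replicate 1. The 4 fibroblast markers were all lower in replicate 2 (median log2 ratio -0.13) and the 5 erythroid markers all higher (median 0.92). The 4 endothelial markers (median 0.20) and the 3 mural markers (median 0.13) were also all higher, and the 4 adipocyte markers all lower (median -0.13). Satellite cell, macrophage and Schwann cell markers were mixed in direction. The part of these markers in the ratios of Prkaa2, Prkab2, Prkag3, Prkag1 and Stk11 was not tested.

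**Figure D3:**
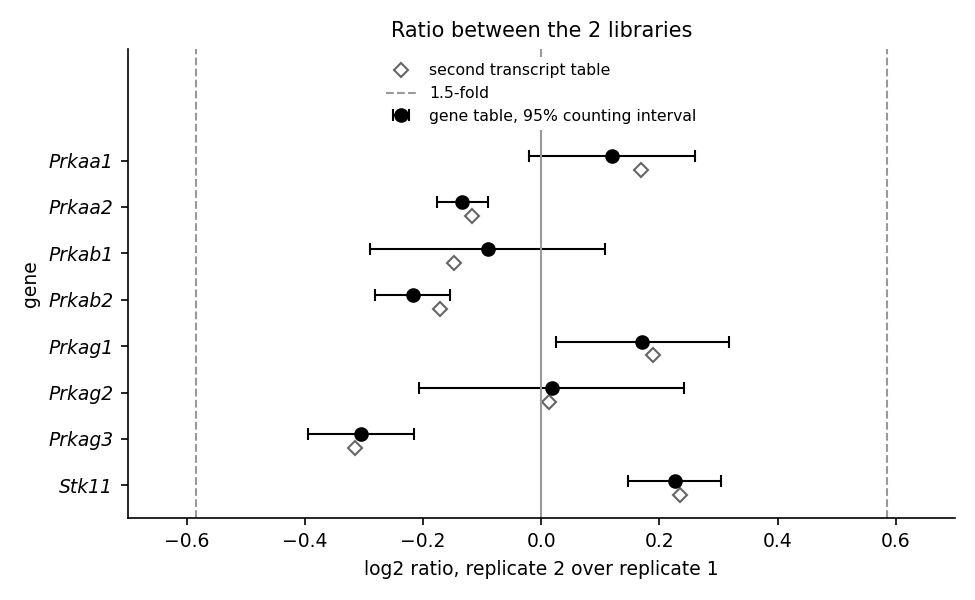
Log2 ratio of replicate 2 over replicate 1 (x axis) for the 8 genes (y axis), from the gene table with the 95% counting interval (filled circles) and from the second transcript table (open diamonds). All 8 genes lie inside the dashed lines at 1.5-fold, and Prkaa2, Prkab2 and Prkag3 lie below 0 in both tables.

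Transcript models divided the members into those with 1 clear species and those without. Prkaa2 has a single annotated transcript of 7969 bases. Prkab2-201 took 100% of the Prkab2 TPM in replicate 2 and 99.7% in replicate 1 in the first transcript table, and 91.96% in replicate 2 and 94.7% in replicate 1 in the second. Prkag1-201 took 88.2% in replicate 2 and 90.7% in replicate 1, and 77.3% in replicate 2 and 68.4% in replicate 1 in the second table. Prkag1-202, at 0 in both libraries of the first table, took 0% in replicate 2 and 23.2% in replicate 1 in the second. Prkaa2, Prkab2 and Prkag1 had the same leading transcript in both tables.

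Prkaa1 was split between transcripts that almost coincide. Prkaa1-201 took 70.1% of the Prkaa1 TPM in replicate 2 and 98.9% in replicate 1, and Prkaa1-202 the rest. Prkaa1-201 begins 30 bases further upstream and opens its reading frame 27 bases earlier, and Prkaa1-202 has no stretch of 31 bases of its own. The first bases of the longer reading frame are printed because they are the whole coding difference between the models. They lie at chr15:5143869-5143898 on the plus strand of mm10, and the capitals mark the ATG of Prkaa1-201 and, at the end, that of Prkaa1-202.
Prkaa1 coding start: ATGcgcagactcagttcctggagaaagATG
The second table gave Prkaa1-201 as 88.5% in replicate 2 and 99.2% in replicate 1. In both tables Prkaa1-201 led in both libraries, and the share of Prkaa1-202 was higher in replicate 2.

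Prkab1 was carried by Prkab1-201 and Prkab1-202, which have the same 810 coding bases. Prkab1-202 took 53.9% of the TPM in replicate 2 and 38.1% in replicate 1, and Prkab1-201 took 29.9% in replicate 2 and 51.0% in replicate 1. The second table had the opposite order in each library, with Prkab1-202 at 23.8% in replicate 2 and 50.8% in replicate 1. The leading Prkab1 transcript could thus not be named from these tables.

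Prkag2 is transcribed from several annotated starts, and the models differ in how much of the amino-terminal part they encode. Prkag2-201, from the most upstream start, has 1698 coding bases and took 28.8% of the Prkag2 TPM in replicate 2 and 33.1% in replicate 1. Prkag2-202, from a start within the gene, has 1329 coding bases and took 4.62% in replicate 2 and 3.83% in replicate 1. Prkag2-203, with 978 coding bases and no stretch of 31 bases of its own, took 31.2% in replicate 2 and 25.0% in replicate 1. It starts beside Prkag2-210, which took 1.04% in replicate 2 and 9.48% in replicate 1, and Prkag2-203 and Prkag2-210 together gave 32.3% in replicate 2 and 34.5% in replicate 1. The models without a reading frame that begin near them took 2.84% in replicate 2 and 3.47% in replicate 1 (Prkag2-208), and 0% in replicate 2 and 1.64% in replicate 1 (Prkag2-209). In the second table Prkag2-201 took 18.8% in replicate 2 and 26.9% in replicate 1, and Prkag2-203 and Prkag2-210 together 30.2% in replicate 2 and 26.0% in replicate 1. Prkag2-202 had the lowest share of these starts in both tables. A further 29.5% in replicate 2 and 16.5% in replicate 1 were assigned to Prkag2-207, a retained-intron model of 651 bases. In the second table Prkag2-207 led, with 42.9% in replicate 2 and 31.9% in replicate 1, on 35.4 estimated counts in replicate 2 and 26.5 in replicate 1.

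The 100 bases before each of these starts are printed because the starts gave unequal shares. They come from the RefSeq promoter windows on GRCm38.p6 (the assembly of mm10), all on the minus strand of chromosome 5, in the order chr5:25100643-25100742, chr5:24995754-24995853 and chr5:24908510-24908609. Capitals mark the E-box motif CANNTG and the GC box GGGCGG, each searched on both strands.
before Prkag2-201: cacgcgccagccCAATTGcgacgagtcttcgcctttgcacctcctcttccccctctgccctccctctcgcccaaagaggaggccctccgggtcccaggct
before Prkag2-202: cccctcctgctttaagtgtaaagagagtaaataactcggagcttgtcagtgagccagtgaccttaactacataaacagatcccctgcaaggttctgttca
before Prkag2-210: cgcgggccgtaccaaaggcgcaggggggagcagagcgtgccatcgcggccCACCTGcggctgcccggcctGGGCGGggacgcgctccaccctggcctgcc
In the 250 bases before each start, the window of Prkag2-201 held 1 E-box and 2 GC boxes, that of Prkag2-202 held 3 E-boxes and no GC box, and that of Prkag2-210 held 2 E-boxes and 1 GC box. Over all 32851 RefSeq windows of that length, 66.2% held an E-box and 32.7% a GC box. Windows of all 8 genes were matched. Prkaa1, Prkaa2, Prkab1 and Prkab2 held no E-box, with 5, 2, 0 and 5 GC boxes. Prkag1 held 1 E-box and 1 GC box, Prkag3 held 1 E-box and no GC box, and Stk11 held 2 E-boxes and no GC box. None of the members' windows held TATAAA, which 12.4% of all windows held. Such matches describe the letters in the window only.

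The Prkag3 level per transcript depended on annotation. Prkag3-204 and Prkag3-206 are the same 2832 bases, yet the annotation calls the first a target of nonsense-mediated decay and the second protein-coding. The first transcript table divided the reads evenly, so that each took 48.2% of the Prkag3 TPM in replicate 2 and 46.5% in replicate 1. Their sum was 1767 expected counts in replicate 2 and 2270 in replicate 1. The tables differed on Prkag3-203, a short model of 517 bases. It had 0.38 TPM in replicate 2, against 1.33 in replicate 1 in the first transcript table, and 21.1 TPM in replicate 2, against 30.9 in replicate 1 in the second. The second table assigned it 97.7 estimated counts in replicate 2 and 144 in replicate 1. Without Prkag3-203, the Prkag3 share of the gamma TPM in the second table was 43.1% in replicate 2 and 49.3% in replicate 1. Prkag3 remained the highest gamma gene in both libraries of that table without it. Its lead was narrow in replicate 2, as the Prkag1 share was then 40.9% in replicate 2 and 37.2% in replicate 1.

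Stk11 had 3 transcripts at 10% or more of its TPM. Stk11-201 has the full reading frame of 1308 bases and took 38.5% in replicate 2 and 37.8% in replicate 1. Stk11-202 lacks the first exons, has 930 coding bases and took 30.5% in replicate 2 and 29.0% in replicate 1. Stk11-210 ends in a different last exon, has 1236 coding bases and took 26.2% in replicate 2 and 24.2% in replicate 1. The coding ends are printed because they are what separates the long and the short carboxyl-terminal form of LKB1. That of Stk11-201 lies at chr10:80129905-80130098 and that of Stk11-210 at chr10:80128391-80128512, both on the plus strand of mm10, and capitals mark the stop codon.
Stk11-201: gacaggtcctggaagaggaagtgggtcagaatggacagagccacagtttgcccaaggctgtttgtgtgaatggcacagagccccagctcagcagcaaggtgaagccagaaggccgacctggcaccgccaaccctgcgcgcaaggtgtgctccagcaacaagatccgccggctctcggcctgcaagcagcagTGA
Stk11-210: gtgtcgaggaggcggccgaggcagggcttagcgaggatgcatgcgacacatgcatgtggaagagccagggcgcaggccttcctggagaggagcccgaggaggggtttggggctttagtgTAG
Before the stop the ends hold 191 coding bases in Stk11-201 and 119 in Stk11-210. Of the TPM of Stk11-201 and Stk11-210 together, Stk11-210 held 40.5% in replicate 2 and 39.0% in replicate 1 (39.8% ± 1.06, SD, n = 2). In the second table it held 23.5% in replicate 2 and 24.8% in replicate 1. Stk11-201 exceeded Stk11-210 in both tables and both libraries, but the share of the short form moved by over 1.5 times between the tables. Stk11-202 and Stk11-210 have no stretch of 31 bases of their own, and Stk11-201 has 7. Few reads can thus be assigned to 1 of these models alone, and the SD does not cover error in the split. Stk11-208, also with 1236 coding bases but annotated to nonsense-mediated decay, was not counted in the short form. Stk11-202 had 14.9 TPM in replicate 2, against 12.9 in replicate 1 in the first table. The second table gave Stk11-202 0.0021 TPM in replicate 2, against 4.11 in replicate 1. In that table Stk11-203, annotated to nonsense-mediated decay, took 18.2% of the Stk11 TPM in replicate 2 and 16.4% in replicate 1, and 1.25% in replicate 2 and 1.31% in replicate 1 of the first.

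**Figure D4:**
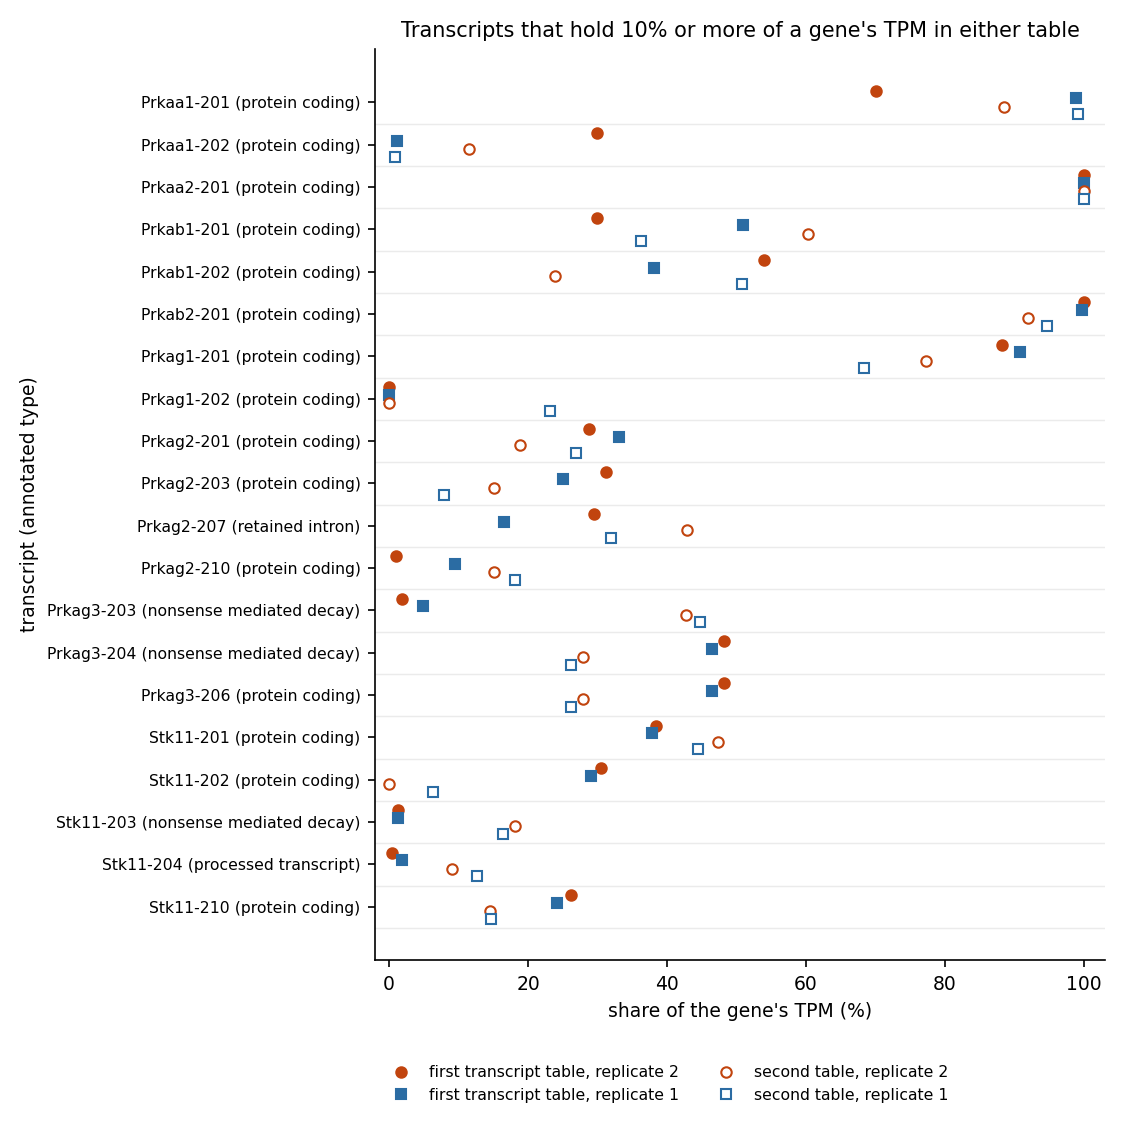
Share of the gene's TPM (x axis, %) for transcripts that reached 10% of their gene in either table (y axis, with the annotated type), in replicate 2 (circles) and replicate 1 (squares) of the first transcript table (filled) and the second (open). The tables lie far apart for Prkag3-203, at 1.82% in replicate 2 and 4.84% in replicate 1 against 42.8% in replicate 2 and 44.8% in replicate 1.

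Genes on the opposite strand shared exonic bases with 4 members, and it is not stated in the labels or headers if reads were counted by strand. B130046B21Rik shared 950 bases with Prkag1 and had 1 expected count in replicate 2 and 0 in replicate 1. Prkag2os2 and Prkag2os1 overlapped Prkag2 by 795 and 142 bases and were at 0 in both libraries. Cbarp shared 232 bases with Stk11 and had 57 expected counts in replicate 2 and 66 in replicate 1. Gm17651 shared 9 bases with Prkab2 and was at 0 in both libraries. The counts assigned to these partners were small beside those of the members they overlap.

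The other genes of the pathway were described by lists chosen by role, 60 genes in 8 lists. Of these, 56 reached 1 TPM in both libraries, against 51.4% of all protein-coding genes, a share that also stands beside the count of each list. Between the libraries 33 were higher and 27 lower in replicate 2, and 1 passed 1.5-fold in the higher direction, beside 1.88% of the tested genes. None passed it in the lower direction, beside 2.44%. Of the tested genes, 46.6% were lower. Intervals excluded 0 for 17 of 60 in the higher direction, beside 19.1% of the tested genes, and for 13 of 60 in the lower, beside 13.2%. As for the members, the shares of tested genes set beside these lists were not matched for depth.

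Among the upstream kinases and LKB1 partners, 6 of 7 reached 1 TPM. Cab39, which encodes the scaffold MO25 of the LKB1 complex, had 40.8 TPM in replicate 2, against 36.9 in replicate 1, close to Stk11 itself. Its log2 ratio was 0.25 (interval 0.18 to 0.32), beside 0.23 for Stk11. Stradb, the pseudokinase partner, had 34.1 TPM in replicate 2, against 36.7 in replicate 1. Map3k7, which encodes TAK1, had 18.1 TPM in replicate 2, against 20.5 in replicate 1. Camkk1, a calcium-dependent kinase, was the one gene below 1 TPM, at 0.74 TPM in replicate 2, against 0.71 in replicate 1. Of the phosphatases, Ppm1a had 78.7 TPM in replicate 2, against 82.3 in replicate 1, while Ppm1e had 0.26 TPM in replicate 2, against 0.32 in replicate 1. The catalytic subunits of phosphatase PP2A lay between them, with Ppp2ca at 20.2 TPM in replicate 2, against 19.7 in replicate 1.

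All 6 lipid metabolism targets were above 1 TPM, with a median log2 ratio of -0.14. Acacb, the mitochondrial acetyl-CoA carboxylase whose phosphorylation by the kinase relieves the block on fatty acid entry, had 33.2 TPM in replicate 2, against 30.5 in replicate 1. Its cytosolic paralogue Acaca had 5.87 TPM in replicate 2, against 6.70 in replicate 1. Acacb was the one gene of the list that was higher in replicate 2, with a log2 ratio of 0.17 (interval 0.12 to 0.21).

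All 8 glucose uptake and glycogen targets were above 1 TPM. Slc2a4, the insulin- and contraction-responsive glucose transporter GLUT4, had 71.2 TPM in replicate 2, against 70.4 in replicate 1. Gys1, muscle glycogen synthase, had 73.5 TPM in replicate 2, against 64.0 in replicate 1. Txnip, which encodes an arrestin-like inhibitor of glucose uptake, was the highest of the list, at 158 TPM in replicate 2, against 221 in replicate 1, with a log2 ratio of -0.46 (interval -0.49 to -0.43). Hk2, the hexokinase that traps glucose in muscle, was the one pathway gene past 1.5-fold. It had 36.7 TPM in replicate 2, against 26.2 in replicate 1, a log2 ratio of 0.63 (interval 0.56 to 0.69).

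All 10 growth and autophagy targets were detected, 8 of them with a ratio above 0 and a median of 0.08, beside 7009 of the 13137 tested genes above 0. The interval excluded 0 for 3 of these 10, all in the higher direction, beside 19.1% of the tested genes. Becn1, a core autophagy factor, had 33.1 TPM in replicate 2, against 32.7 in replicate 1. Tfeb, the lysosomal transcription factor, had 28.3 TPM in replicate 2, against 28.9 in replicate 1, and Tsc2, a brake on mTOR signalling, had 19.7 TPM in replicate 2, against 21.99 in replicate 1. Fnip1, a folliculin partner that binds the kinase, had the largest ratio of the list, 0.20 (interval 0.10 to 0.30). All 7 transcription and mitochondrial targets were detected as well. Mff, the mitochondrial fission factor, led them with 52.9 TPM in replicate 2, against 57.8 in replicate 1. The class IIa histone deacetylases went in different directions, with Hdac7 at 0.37 (interval 0.26 to 0.48), Hdac5 at 0.27 (interval 0.18 to 0.35) and Hdac4 at -0.35 (interval -0.44 to -0.27).

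**Figure D5:**
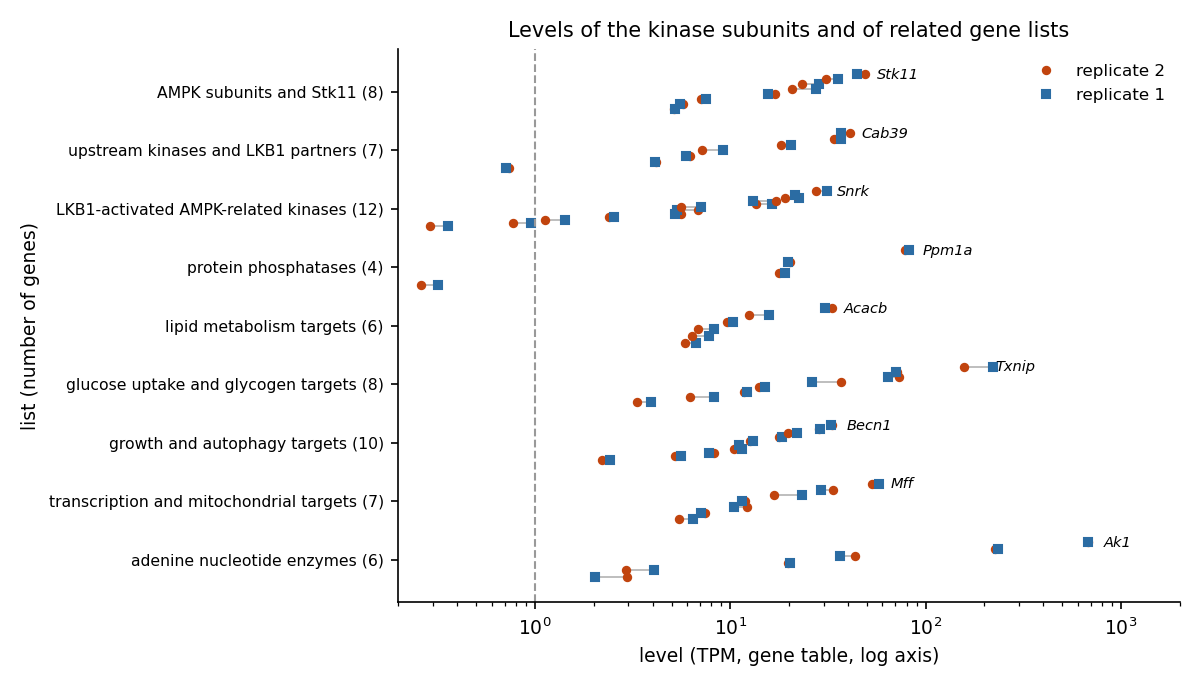
Level in TPM (x axis, log scale) of each gene of the 8 pathway lists and of the 8 kinase genes (y axis, with the number of genes), in replicate 2 (circles) and replicate 1 (squares), with a line between the libraries and the highest gene of each list named. Of the 60 pathway genes, 56 lie at or right of the dashed line at 1 TPM in both libraries, against 51.4% of all protein-coding genes.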

How the data were processed

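RNA of 2 libraries of 1 group was analysed. Expected counts, posterior mean counts and TPM for genes and for transcripts were deposited by the authors in files laid out as RSEM writes them. Per the file headers and the notes beside them, these rest on transcriptome alignments to mm10 with the GENCODE M21 annotation. The percent of a gene's TPM that each transcript takes is also deposited. Estimated counts and TPM of transcripts were deposited a second time in files laid out as kallisto writes them, called the second table. The aligner, the program versions and any use of strand are not given in the labels or headers.

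Of 81881 features, 55536 matched GENCODE M21 genes. A further 26248 numbered features, summing to 1.97 counts in replicate 2 and 0.96 in replicate 1, and 96 spike-ins were left out of scaling. Rounded expected counts were scaled with TMM (edgeR 4.0.16, R 4.3.3) over genes averaging at least 10 counts. Ratios used a prior count of 0.5 and exact binomial intervals of 95%. The intervals were taken from 1 rounded count per library, so they cover counting error only. The labels name no molecular identifiers. The ratio step was tested on simulated data. Alternatives used DESeq2 1.42.0 size factors, library or spike-in totals, no filter, another prior count or pseudocount, posterior means, protein-coding transcripts only, the second table and each replicate alone. A further 3 alternatives were chosen after seeing the data. Intervals, sums and sequences were computed in Python 3.11.15 with scipy 1.17.1, pandas 2.3.3, numpy 2.4.6 and Biopython 1.88.

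The members and gene lists were chosen with earlier results of these data known. All 8 members were named, with transcripts at 10% or more, and of each pathway list the 3 highest genes by TPM and the gene with the largest ratio, or up to 6 genes of a short list. A gene that this rule names is not reported here. Hdac5 and Hdac4 are among the 3 highest of their list. No genes of like pattern were sought, since 2 libraries of 1 group give none. Transcripts below that share were named where an annotated start or a difference between the tables involved them, after their values were seen. Proteins were not used here.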

Additional observations from a re-analysis of the deposited data

How the results depend on the processing

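With 2 libraries the SD is poorly known, and depth limits the ratios of Prkab1 and Prkag2. No paired analysis was possible because there is 1 group. The Prkaa2 share stayed within its SD in the second table (85.4%) and with posterior mean TPM (85.4%). Its other alternatives could not move it further. Both alpha genes have protein-coding transcripts only, and with 2 libraries each alone always lies within the SD of the mean. No member passed 1.5-fold in any alternative. All 56 alternative ratios of single members lay within the counting error of the main ratio, although the sign of Prkag2, near 0, turned with library and spike-in totals. In the second transcript table the Prkag1 share was 28.7%, the Prkag3 share 60.4%, alpha over beta 0.12 and alpha over gamma -0.88 (log2). With Prkag3-203 left out of it, an alternative chosen after seeing the data, the Prkag3 share was 46.2% and alpha over gamma -0.44. With posterior mean TPM alpha over beta was 0.18 and alpha over gamma -0.29. With transcripts annotated protein-coding only, the Prkab2 share was 80.2%, the Prkag1 share 50.8% and the Prkag3 share 37.8%, so that Prkag1 led the gamma family in place of Prkag3, and alpha over gamma turned to 0.31. That setting drops Prkag3-204. When it was counted again, chosen after seeing the data, alpha over gamma was -0.13 and the Prkab2 share 80.2%. Prkag3 then led the gamma family again, with a share of 54.3%, against 37.4% for Prkag1. The median member ratio was -0.080 with library totals and -0.068 with spike-in totals, where a different scaling shifts all genes. Elsewhere the cause was not tested. Levels of single members moved in 16 of 24 alternatives, and the leading transcript's share in 5 of 8.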

Other observations

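The kinases related to AMP-activated protein kinase, which LKB1 also activates, were also detected. Of 12 such genes 10 reached 1 TPM in both libraries, against 51.4% of all protein-coding genes. Snrk, a sucrose-nonfermenting related kinase, was the highest, with 27.5 TPM in replicate 2, against 31.3 in replicate 1. Mark3, a microtubule affinity-regulating kinase, had 21.4 TPM in both, and Sik3, a salt-inducible kinase, had 19.1 TPM in replicate 2, against 22.4 in replicate 1. Sik1, which is induced by cAMP signalling, had the largest difference of the list, with 17.1 TPM in replicate 2, against 13.03 in replicate 1 and a log2 ratio of 0.47 (interval 0.38 to 0.56).

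The enzymes that make and remove AMP included the highest genes of any pathway list. Ak1, the muscle adenylate kinase that makes AMP from ADP, had 676 TPM in replicate 2, against 678 in replicate 1. Ampd1, the muscle AMP deaminase that removes AMP, had 226 TPM in replicate 2, against 233 in replicate 1, while its paralogue Ampd3 had 2.96 TPM in replicate 2, against 2.03 in replicate 1. Adk, adenosine kinase, had 43.6 TPM in replicate 2, against 36.5 in replicate 1, with a log2 ratio of 0.19 (interval 0.08 to 0.30). The 6 genes of this list had a median log2 ratio of 0.06, beside 0.01 over all tested genes.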
